A study of Mus musculus with 31 samples.

Results

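The comparison concerned histone H3 monomethylated at lysine 4 (H3K4me1) in the hippocampus of mice with 1 disrupted copy of Kmt2d, treated with TAK-418 or with vehicle. It held 8 of the 31 libraries of the series, 4 from each group, and 545 of the 11752 regions in the 8 deposited lists of differential regions. Members were all 8 libraries, their peak lists, and every region of the deposited list that set heterozygotes on vehicle against heterozygotes on TAK-418. All mice were C57BL6, 30 days old, with the genotype KMT2D+/bGeo, in which a bGeo insertion interrupts 1 Kmt2d allele. Treated mice were gavaged with TAK-418, an inhibitor of the demethylase LSD1, at 1 mg/kg/day for 2 weeks from the age of 2 weeks, and the others were gavaged with methylcellulose, the vehicle, alone. Wild type mice (KMT2D+/+) under the same treatments, with 4 vehicle and 3 TAK-418 H3K4me1 libraries, served for comparison. Each library came from its own numbered mouse, and sex was not given in the sources used here.

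H3K4me1 is laid down at enhancers and along the flanks of promoters. KMT2D is a main enhancer methyltransferase for H3K4, and its loss on 1 allele causes Kabuki syndrome, a disorder with intellectual disability and impaired hippocampal neurogenesis. LSD1, encoded by Kdm1a, removes methyl groups from monomethylated and dimethylated H3K4, so writer and eraser act on the same residue. The libraries address whether inhibiting the eraser changes the mark in mice that lack 1 copy of the writer.

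The peak lists were short. The 4 vehicle libraries had 449, 377, 252 and 227 peaks (mice 842, 844, 845 and 848) and the 4 TAK-418 libraries had 354, 402, 372 and 251 (mice 801, 811, 814 and 815). Between 34.5% and 69.6% of a library's peaks touched recurrent bases, meaning bases inside peaks of at least 8 libraries of H3K4me1 and of at least 8 of H3K4me3, which covered 356.8 kb in all. The lists gave no support for the tissue label either way, since 0 of 33 genes of excitatory neuron identity and synapse, 0 of 20 of inhibitory neurons, 0 of 14 of astrocytes and 0 of 16 of the oligodendrocyte lineage were marked within 2 kb of a gene end in any of the 8 libraries. Peaks lay at the ends of 113 of 21900 protein-coding genes (0.516%). The files used here hold no read counts of these libraries, so their depth was unknown.

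Genes whose ends were marked in all 8 libraries included Sp110 and Sp140, which encode interferon-inducible nuclear body proteins, the Ugt1a genes for enzymes that attach glucuronic acid, Hjurp, which encodes the chaperone of the centromeric histone CENP-A, Sfi1, a centrosome gene, and Duxf3, a double homeobox gene. Several of these stand in families of near-identical copies, where reads can be shared between copies. The upstream sequences that follow are the 250 bases before a start given for each gene. For C130026I21Rik and Sp110 that start lies inside the gene's span (chr1:85241286-85282883 and chr1:85570735-85610850), away from its ends. The sequences are shown because listed regions lay on them and because they let a reader see how alike a pair of the marked copies is. They are from RefSeq (GRCm38.p6, the assembly also called mm10), 5′ to 3′ in the direction of the gene, with each CpG in capitals. A530032D15Rik (chr1:85109854-85110103, minus strand) and C130026I21Rik (chr1:85270567-85270816, minus strand) are relatives of Sp110 (chr1:85598811-85599060, minus strand), and Gm33272 (chrY:90793437-90793686, plus strand) is a noncoding RNA gene near the distal end of the Y chromosome.
A530032D15Rik: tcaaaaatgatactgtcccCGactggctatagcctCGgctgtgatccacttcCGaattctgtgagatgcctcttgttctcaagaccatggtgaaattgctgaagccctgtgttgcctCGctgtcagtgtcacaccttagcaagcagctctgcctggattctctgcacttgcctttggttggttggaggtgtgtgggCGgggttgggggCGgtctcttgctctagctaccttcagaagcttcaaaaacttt
C130026I21Rik: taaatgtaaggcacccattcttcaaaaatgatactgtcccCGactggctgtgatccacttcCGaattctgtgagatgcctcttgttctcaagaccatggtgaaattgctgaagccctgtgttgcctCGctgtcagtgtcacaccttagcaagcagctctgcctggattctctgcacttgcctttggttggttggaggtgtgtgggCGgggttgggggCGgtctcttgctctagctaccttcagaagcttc
Sp110: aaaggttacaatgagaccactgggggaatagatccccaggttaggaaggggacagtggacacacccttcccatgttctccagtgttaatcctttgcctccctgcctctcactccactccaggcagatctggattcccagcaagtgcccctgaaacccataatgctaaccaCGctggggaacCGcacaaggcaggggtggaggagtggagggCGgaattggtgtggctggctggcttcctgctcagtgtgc
Gm33272: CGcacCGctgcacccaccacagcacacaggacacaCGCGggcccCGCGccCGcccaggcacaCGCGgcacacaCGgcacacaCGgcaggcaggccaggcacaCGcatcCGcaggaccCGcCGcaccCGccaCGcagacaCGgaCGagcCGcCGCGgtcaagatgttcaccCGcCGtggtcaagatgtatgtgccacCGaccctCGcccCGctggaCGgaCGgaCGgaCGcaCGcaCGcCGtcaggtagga
The sequences of A530032D15Rik and C130026I21Rik were 84.5% identical in a global alignment, while Sp110 was 51.4% identical to the first and 53.3% to the second. They held 6, 5, 3 and 34 CpGs in the order printed, beside a median of 6 over 32851 upstream sequences, of which 17.9% held 20 or more.

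Peak lists did not separate the groups. The number of peaks was 326 ± 105 with vehicle and 345 ± 65.6 with TAK-418 (SD, n = 4 each), a ratio of geometric means of 1.08 (two-sided exact permutation p = 0.829, adjusted p = 0.829 over 3 measures). Peaks covered 698.6, 791.2, 502.1 and 364.1 kb in the vehicle libraries and 561.0, 554.5, 560.3 and 445.5 kb in the TAK-418 libraries, in the mouse order given above. The TAK-418 range lay wholly inside the vehicle range (ratio 0.936, exact permutation p = 0.714, adjusted p = 0.829). Genes with a peak at an end numbered 77, 74, 48 and 44 with vehicle and 67, 74, 61 and 65 with TAK-418 (ratio 1.13, exact permutation p = 0.457, adjusted p = 0.829). Exact permutation of 4 libraries against 4 cannot reach a p below 0.0286. The tissue was whole hippocampus, so a change in the number of cells of a type and a change in the mark per cell cannot be told apart in any of these values.

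In wild types the ratios of TAK-418 to vehicle were 1.65 for the number of peaks, 1.38 for the covered length and 1.56 for the genes. The lowest wild type vehicle library, of mouse 847, had 88 peaks, 190.6 kb and 16 genes. The differences between genotypes in these effects did not pass the test (exact permutation p = 0.420, 0.381 and 0.588, adjusted p = 0.588 for each of the 3 measures). Heterozygote minus wild type, they were −0.183, −0.168 and −0.140 in log10. Without mouse 847 they were −0.059, −0.075 and −0.0032. Without mouse 805, on TAK-418, they were −0.120, −0.078 and −0.098, and without mouse 813, also on TAK-418, −0.263, −0.271 and −0.191. The wild type ratios therefore depended on single libraries, mouse 847 among them.

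**Figure D1:**
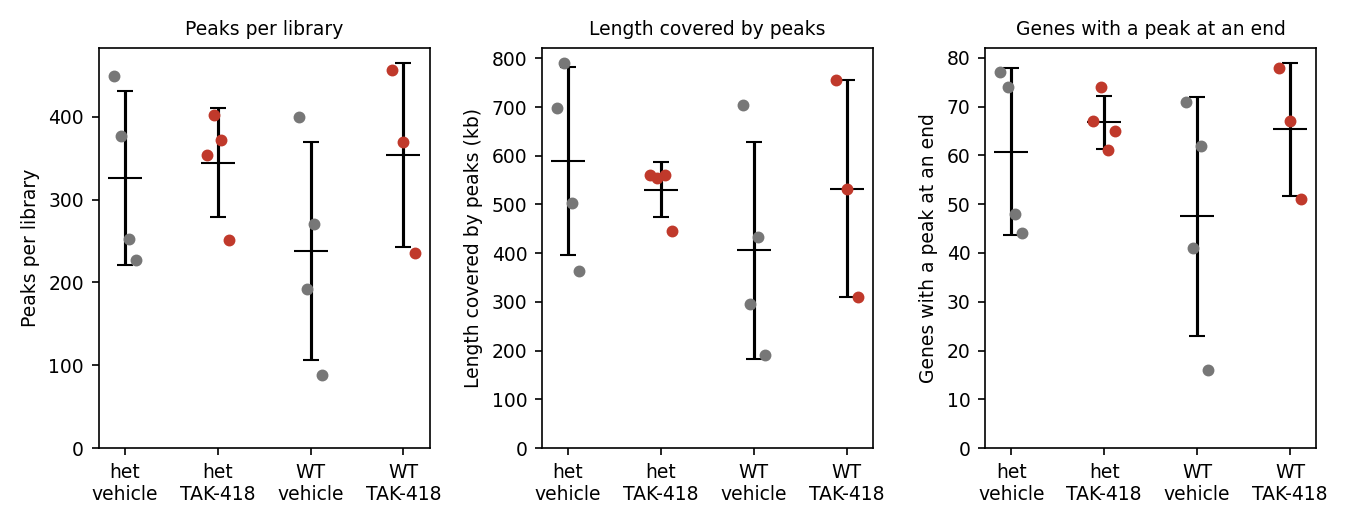
Number of H3K4me1 peaks, length covered by them in kb and count of protein-coding genes marked within 2 kb of either end, 1 point per library, with the mean and SD of each group (4 libraries, 3 in wild type TAK-418). The heterozygote TAK-418 libraries lie within the vehicle range for all 3 measures, as in 445.5 to 561.0 kb against 364.1 to 791.2 kb.

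Merging the peaks of the 8 libraries gave 855 regions, of which 85 had a peak in every library and 494 in 1 library only. Fisher's exact test over the 250 regions with a peak in 2 to 6 libraries called 0 (0.0%), and 0 had an unadjusted p under 0.05, the lowest being 0.143. This test, too, cannot reach a p below 0.0286 with 4 libraries against 4. A region with peaks in every library of 1 group only could not have passed the adjustment on its own. The adjusted count therefore cannot show whether single peaks were gained or lost. A region had a peak in all 4 libraries of one group and at most 1 of the other in 8 cases. The 1 region with 4 vehicle libraries and 1 TAK-418 library lay at Gm7609 in the Sp110 cluster (chr1:85197509-85200164), with fold enrichments of 4.73, 4.44, 5.10 and 5.74 in the vehicle peaks and 4.34 in the peak of mouse 815. The other 7 had 4 TAK-418 libraries and 1 vehicle library. One lay inside Sp140 (chr1:85613661-85615745), where the 4 TAK-418 peaks had fold enrichments of 5.19, 5.35, 4.51 and 4.47 and the single vehicle peak, in mouse 844, had 4.98. Another lay inside Zfp978, a zinc finger gene (chr4:147195334-147196840), another at an end of Mid1, which encodes a ubiquitin ligase of microtubules (chrX:169990240-169992440), 2 near the distal end of the Y chromosome (chrY:90738022-90740506 and chrY:90792342-90796971), and 2 on chromosome 8 (chr8:20273035-20275037 and chr8:20593055-20594160). The second Y region holds the printed upstream sequence of Gm33272. Where present, the peaks of these 7 had fold enrichments between 4.31 and 5.91, and those in the single vehicle library, between 4.72 and 5.60, lay inside that range.

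Of the 545 listed regions, 333 (61.1%) had a higher mean score with TAK-418 and 212 (38.9%) a lower one. A score is the authors' whole-number value per library, and every listed region had passed a p of the authors, so the list holds no unchanged regions to compare with. Refitted here with limma on log2(score + 1), 0 of 545 regions (0.0%) passed an adjusted p of 0.05. The smallest adjusted p was 0.431, and 40 regions had an unadjusted p under 0.05, 14 of them higher and 26 lower with TAK-418. That split depended on single values, being 39 higher and 10 lower without vehicle value 1, 15 and 12 without vehicle value 2, 31 and 16 without TAK-418 value 4, and 4 and 18 without TAK-418 value 3, and with columns scaled to the same median it was 7 and 38. The groups' ranges did not overlap in 35 regions (6.42%), 14 higher and 21 lower. In the wild type list the count was 73 of 538 (13.6%), but with 4 values against 3, which overlap less often by construction, and with 7 values the heterozygote count was 45 to 86.

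The list held a pair of unlike sets. In 374 regions at least 1 of the 8 libraries had a peak, and of these 174 (46.5%) were higher and 200 (53.5%) lower with TAK-418. In the other 171 no library had a peak, and 159 (93.0%) were higher. The regions without a peak were 250 to 650 bp wide (median 350) and the others 250 to 19900 bp (median 600). Of the 171, 111 were intergenic, 53 lay inside a protein-coding gene and 7 within 2 kb of a gene end.

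The regions without a peak shared a profile over the 8 values. Their median score was 329, 35.0, 97.0 and 231 at the 4 vehicle values in the order of the list and 264, 290, 231 and 179 at the TAK-418 values. The second vehicle value was the lowest of the 8 in 121 of the 171, and in 124 it was under 30% of both the first and the fourth, which held for 2 of the 374 regions with a peak. The list does not name the library of a value, and the place of a value was treated as the same library in each row. An intergenic example at chr2:74184301-74184650, the first of the regions without a peak by the authors' p, had 19274, 529, 2784 and 14600 with vehicle and 19695, 16821, 10930 and 8882 with TAK-418. Both high vehicle values lay within the TAK-418 range, and the other vehicle values were below every TAK-418 value. Its means of 9297 ± 9073 and 14082 ± 5033 (SD, n = 4) differed by less than the spread (exact permutation p = 0.371).

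**Figure D2:**
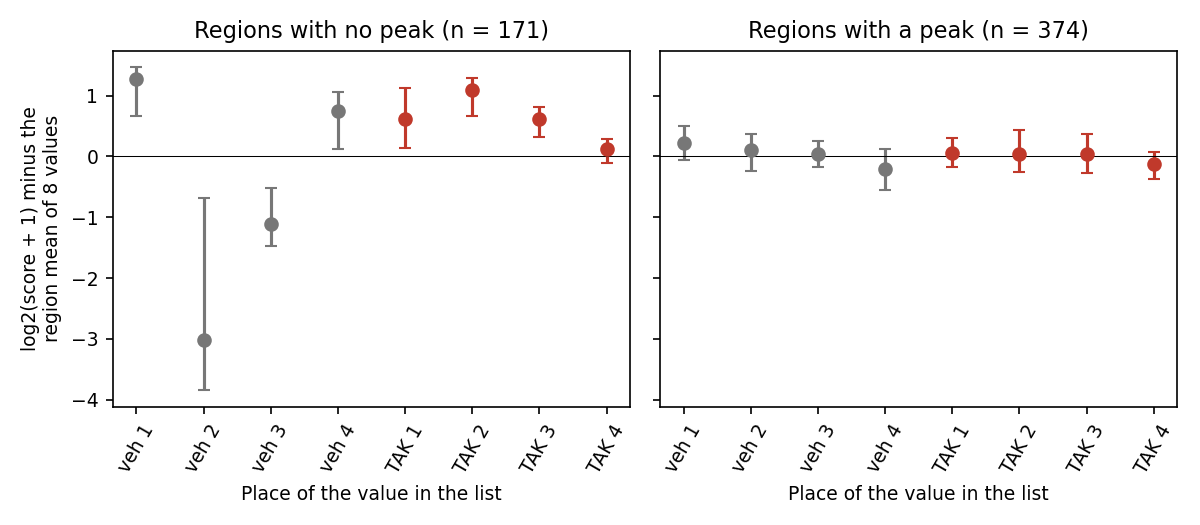
Median and interquartile range of log2(score + 1) minus the mean of the region's 8 values, at each place in the list, for the 171 regions with no peak and the 374 with a peak. Without a peak, vehicle values 2 and 3 lie at −3.01 and −1.10 while vehicle values 1 and 4 lie at 1.27 and 0.74, and with a peak all 8 medians lie between −0.20 and 0.21.

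Without the second and the third vehicle value, chosen after their scores were seen, 47 of the 171 regions without a peak (27.5%) were higher with TAK-418 instead of 159, while among regions with a peak the count was 185 of 374 (49.5%) instead of 174. Over the whole list this gave 232 higher (42.6%) and 313 lower. Without the second value alone 115 of the 171 were higher, and without the third alone 129. In the deposited list that sets heterozygote vehicle against wild type vehicle, 137 of the 171 regions recur, and there the 4 wild type medians were 420, 349, 400 and 218 beside heterozygote vehicle medians of 471, 28.0, 104 and 339. That list shares the vehicle libraries, so its heterozygote values are not separate measurements.

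Regions named for neuronal and glial genes came mostly from this set. Gria2 encodes an AMPA glutamate receptor subunit, and a region inside it (chr3:80717351-80717750) had scores of 603, 31, 111 and 423 with vehicle and 652, 418, 393 and 280 with TAK-418. Homer1 encodes a scaffold of the postsynaptic density, and a region inside it (chr13:93355401-93355800) had 10939, 226, 1985 and 8820 with vehicle and 3212, 8516, 7461 and 4349 with TAK-418. The second and the third vehicle value were the lowest of the 8 at both genes, and the first vehicle value at Homer1 was the highest. Nfia encodes a transcription factor of glial and neural progenitor development, and the region 36325 bp from its end (chr4:98155201-98155600) had 213, 1, 78 and 118 with vehicle and 161, 207, 86 and 95 with TAK-418. Gpc5, a glypican gene marking astrocytes, had 163, 12, 27 and 139 with vehicle and 167, 152, 106 and 55 with TAK-418 at chr14:116568301-116568650. The groups overlapped at all 4 genes, and none of the 4 regions held a peak.

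Over 18 gene lists with 400 genes, 8 genes had a listed region assigned to them, the nearest protein-coding gene end within 100 kb being used. Over all protein-coding genes the share was 204 of 21900 (0.932%). None was from the lists of H3K4 methyltransferases and their complexes (0 of 18) or of LSD1-CoREST and other H3K4 demethylases (0 of 20). Kmt2d and Kdm1a themselves had 0 listed regions and a peak at an end in 0 of the 8 libraries. The lists of inhibitory neurons, oligodendrocyte lineage, vascular cells, choroid plexus and ependyma, blood cells, immediate early genes, ion channels, interferon response, ribosomal proteins and circadian clock had none either. The excitatory neuron list had 2 of 33 genes (Gria2 and Homer1), the Wnt pathway 2 of 32 (Wls and Axin2), neural progenitors and neurogenesis 1 of 29 (Nfia), astrocytes 1 of 14 (Gpc5), microglia 1 of 16 (Fcgr3), and axon guidance and cell adhesion 1 of 48 (Chl1). These 8 genes held 11 listed regions, none past limma's adjusted p.

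Fcgr3, Wls, Axin2 and Chl1 had regions with a peak. Wls encodes the carrier that brings Wnt ligands to the cell surface, and the region 685 bp from its end (chr3:159939351-159939900) had 2788, 3010, 2859 and 1094 with vehicle and 2103, 3907, 2281 and 2750 with TAK-418. Axin2 encodes a scaffold of the beta-catenin destruction complex and a target of Wnt signalling, and a region 60718 bp from its end (chr11:109011501-109012300), with a peak in all 8 libraries, had 1486, 1186, 1255 and 1074 with vehicle and 1499, 2740, 1650 and 1375 with TAK-418. The lowest TAK-418 score at Axin2 stood below 1 vehicle score. Fcgr3, an Fc receptor gene of microglia, had 3 regions: at the gene's end (chr1:171065801-171066150) scores were 71, 72, 111 and 8 with vehicle and 122, 80, 85 and 110 with TAK-418, and a region 12036 bp away (chr1:171077951-171078400) had the lower mean with TAK-418. Chl1, a neural cell adhesion gene, held a region (chr6:103648951-103649500) with 227604, 192358, 124054 and 85502 with vehicle and 132126, 155492, 56054 and 128442 with TAK-418. That region was 1 of 3 whose p the authors wrote as 0, yet the groups overlapped and the means of 157380 ± 64374 and 118028 ± 43018 (SD, n = 4) differed by less than the spread (exact permutation p = 0.400). A second region in Chl1 (chr6:103726251-103726600), without a peak, had the higher mean with TAK-418, with 3425, 102, 498 and 2467 with vehicle and 805, 2956, 2269 and 1308 with TAK-418.

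The other regions with a p written as 0 also overlapped. An intergenic region on chromosome 10 (chr10:72297051-72297800), with a peak in all 8 libraries, had 4245109, 117869, 648645 and 3293564 with vehicle and 4359482, 3492007, 2916656 and 1690026 with TAK-418. A region inside Trim30a, an antiviral tripartite motif gene (chr7:104427851-104428350), had 609459, 16489, 90109 and 465875 with vehicle and 611578, 497036, 414746 and 243509 with TAK-418. In both the second and the third vehicle value were the lowest of the 8, and these were the 2 regions with a peak whose second value was under 30% of the first and of the fourth. Other regions also had means above 100000, among them 1 near Rab10 (chr12:3109751-3110350, means 555861 and 617650, a peak in 6 libraries), up to means of 6613120 and 6831500 at chr2:98666551-98667550, where the ratio was 1.03.

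Regions with a peak were concentrated in few places. Grouping those less than 500 kb apart gave 7 loci with at least 10 regions, which held 214 of the 374 (57.2%), 72 higher and 142 lower with TAK-418. The largest, the Sp110 cluster, held 25.4% of the 374. Peaks there covered 183.1, 202.1, 109.2 and 101.4 kb in mice 842, 844, 845 and 848. In mice 801, 811, 814 and 815 they covered 142.5, 127.9, 114.2 and 113.4 kb, of the totals given above. The share of all peaks in the 7 loci was not computed, so the 57.2% is not shown to be particular to the list.

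**Figure D3:**
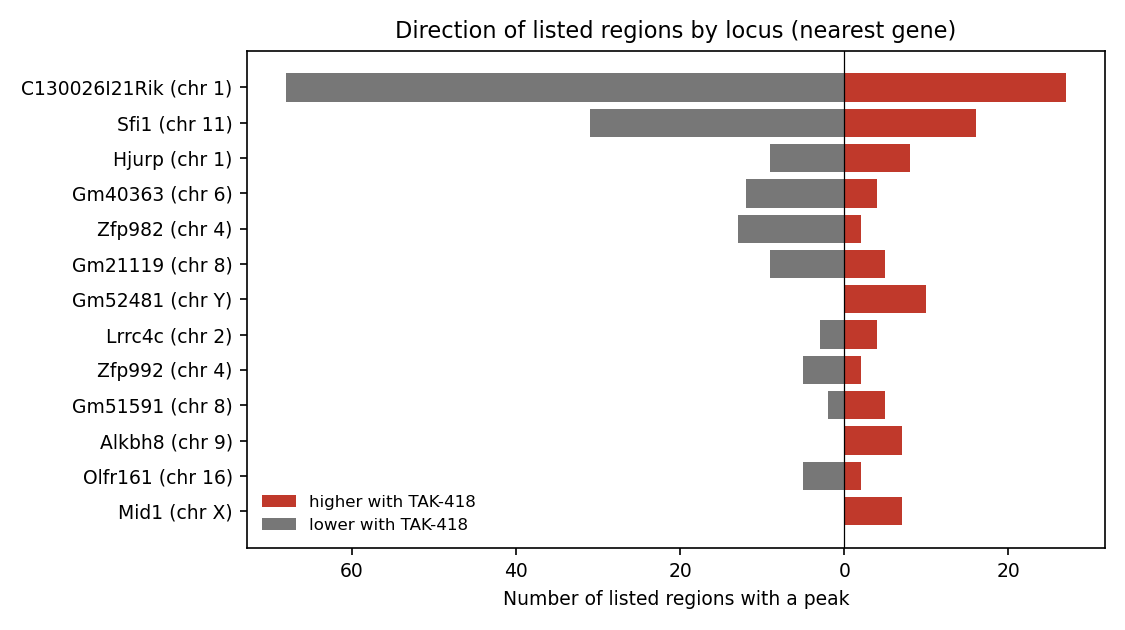
Number of listed regions with a peak that were higher (red, right) or lower (grey, left) with TAK-418 in each locus of at least 7 regions, named by the gene nearest to most of its regions. The Sp110 cluster (labelled C130026I21Rik) has 68 lower and 27 higher, and the distal ends of the Y (Gm52481) and X (Mid1) chromosomes have higher regions only, 10 and 7.

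The first locus was the cluster of Sp110, Sp140 and their relatives on chromosome 1 (chr1:84962601-85626500), with 95 regions over 664 kb, of which 68 were lower with TAK-418, 27 higher and 78 recurrent. Scores summed over the 95 were 28868, 25751, 22925 and 24564 with vehicle and 22818, 21691, 21962 and 20731 with TAK-418. The lowest vehicle sum stood just above the highest TAK-418 sum, in regions that the authors' p had already chosen. Ranges did not overlap in 11 of the 95, 7 lower and 4 higher, beside 6.42% of the whole list and 31 of the 374 regions with a peak, with limma adjusted p of 0.431 for each of the 11. Lower regions outnumbered higher ones inside genes (48 and 18), between genes (10 and 2) and at gene ends (10 and 7).

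A region inside A530032D15Rik (chr1:85104251-85105400) had 357, 453, 260 and 255 with vehicle and 195, 224, 170 and 184 with TAK-418, means of 331 ± 93.8 and 193 ± 22.9 (SD, n = 4, limma log2 change −0.74 ± 0.23 SE). Every TAK-418 score was below every vehicle score, which is how the region was chosen for naming. Inside C130026I21Rik (chr1:85259901-85260800), with a peak in all 8 libraries, scores were 346, 381, 397 and 370 with vehicle and 269, 215, 266 and 293 with TAK-418 (limma log2 change −0.52 ± 0.16 SE), again without overlap. A region shared by Sp110 and Sp140 (chr1:85604801-85606450) had 1002, 731, 887 and 786 with vehicle and 638, 664, 588 and 602 with TAK-418, and its means of 852 ± 119 and 623 ± 34.5 (SD, n = 4) gave a ratio of 0.732. Inside Gm7592 (chr1:85456101-85456500) scores were 142, 105, 106 and 116 with vehicle and 54, 71, 67 and 62 with TAK-418, a ratio of 0.542.

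The listed regions that lay on upstream sequences in this cluster had the opposite direction of mean. Those on C130026I21Rik and Sp110 lay inside the genes, not near a gene end. The region on the printed sequence of A530032D15Rik (chr1:85109501-85110150) had 229, 149, 191 and 295 with vehicle and 361, 313, 341 and 159 with TAK-418. That on C130026I21Rik (chr1:85270601-85272650) had 494, 706, 689 and 412 with vehicle and 889, 703, 771 and 657 with TAK-418. That on Sp110 (chr1:85598301-85599150) had 456, 253, 331 and 302 with vehicle and 468, 524, 633 and 238 with TAK-418. That on Gm2427 (chr1:85495851-85496250) had 96, 105, 90 and 57 with vehicle and 67, 168, 107 and 127 with TAK-418. The ranges of the groups overlapped in all 4. In the whole list 11 regions touched an upstream window of a RefSeq gene, the windows running to 50 bases past the start, and 9 of them were higher with TAK-418 and 2 lower. These included Duxf3 (means 1021 and 1165) and Gm33272 (means 205 and 327).

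**Figure D4:**
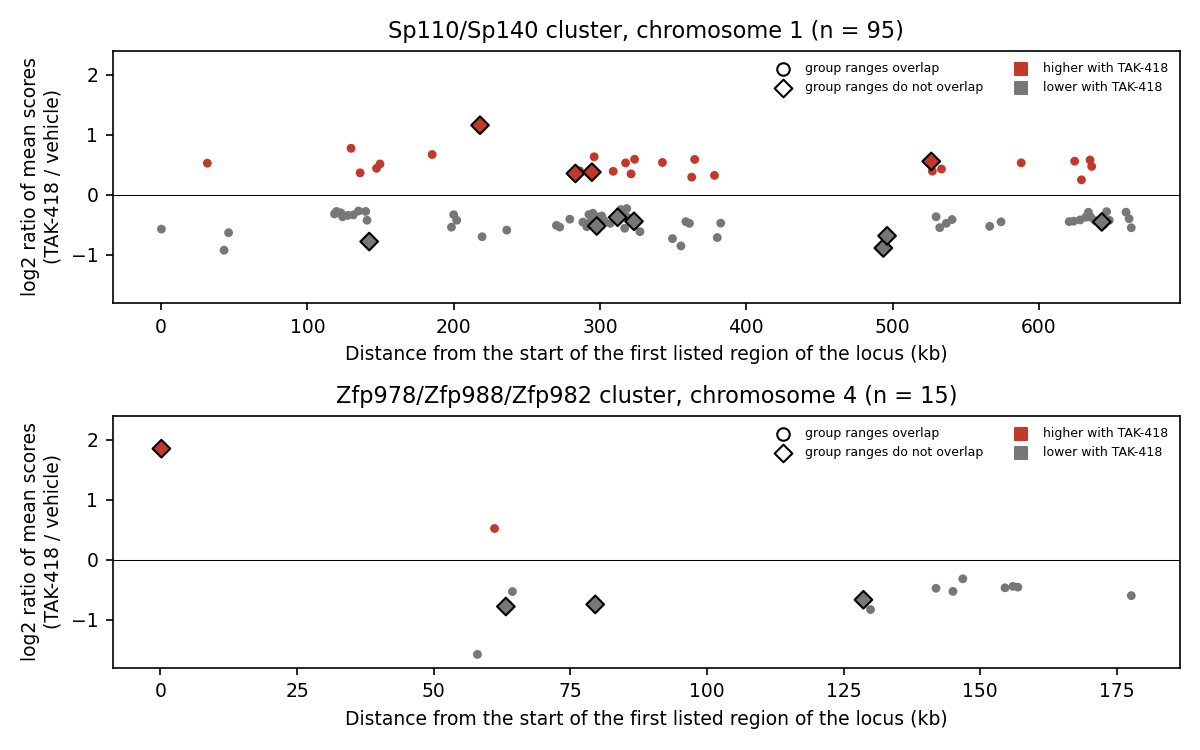
log2 ratio of mean scores, TAK-418 over vehicle, for each listed region with a peak in the Sp110/Sp140 cluster and in the Zfp978/Zfp988/Zfp982 cluster, against distance in kb from the start of the first listed region. Diamonds mark the 11 and 4 regions whose group ranges do not overlap, beside 35 of 545 (6.42%) in the whole list. Most points lie below 0 (68 of 95 and 13 of 15), in regions already chosen by the authors' p.

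The 2 next loci were at Sfi1 and the Ugt1a cluster. Sfi1 (chr11:3100301-3199650) held 47 regions, 31 lower and 16 higher with TAK-418, with ratios between 0.734 and 1.28. Its summed scores overlapped, at 68814, 60978, 59482 and 54573 with vehicle and 63981, 55498, 59865 and 54349 with TAK-418. Ranges did not overlap in 3 of the 47, about the share in the whole list (6.42%). The 3 were lower, such as chr11:3198651-3199650, which had 1536, 1575, 1621 and 1231 with vehicle and 1097, 1136, 1166 and 1126 with TAK-418. Peaks covered nearly the same length of this locus in every library, 75.1 to 78.6 kb with vehicle and 75.0 to 75.7 kb with TAK-418. The locus of the Ugt1a genes, Mroh2a and Hjurp (chr1:88212551-88287250) held 17 regions, 9 lower and 8 higher. Summed scores overlapped here as well, at 3050, 2707, 2989 and 2679 with vehicle and 3186, 2663, 2853 and 2440 with TAK-418. At the shared end of the Ugt1a genes (chr1:88219251-88220300) scores were 338, 320, 378 and 335 with vehicle and 295, 202, 186 and 296 with TAK-418, without overlap and with means of 343 ± 24.8 and 245 ± 59.0 (SD, n = 4). A region 8657 bp from Hjurp (chr1:88286301-88287250) had the smallest unadjusted limma p of the list, 0.00292, with 93, 140, 147 and 110 with vehicle and 257, 225, 310 and 193 with TAK-418 (limma log2 change 1.00 ± 0.24 SE, adjusted p = 0.431).

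Zinc finger genes on chromosome 4 held the extremes of the ratio. In the locus of Zfp978, Zfp988 and Zfp982 (chr4:147275251-147453000) 13 of 15 regions were lower with TAK-418, and the summed scores were 3053, 2626, 2175 and 2298 with vehicle and 1969, 1832, 1846 and 1646 with TAK-418. These sums did not overlap, but they run over regions already chosen by the authors' p, most of them for being lower. Ranges did not overlap in 4 of the 15, 3 lower and 1 higher, beside 6.42% of the whole list. The lowest ratio of the list, 0.335, was at an end of Zfp988 (chr4:147333051-147333450), where scores were 147, 97, 59 and 213 with vehicle and 52, 70, 16 and 35 with TAK-418. There the third vehicle score lay below the second TAK-418 score (exact permutation p = 0.0571). The highest ratio, 3.60, was inside Zfp978 (chr4:147275251-147275600), with 31, 26, 64 and 13 with vehicle and 116, 185, 114 and 68 with TAK-418 (limma log2 change 1.94 ± 0.56 SE, unadjusted p = 0.00808, adjusted p = 0.431). A peak covered that region in 1 library. In a neighbouring locus near Zfp992 and Zfp980 (chr4:145778301-146482700), 5 of 7 regions were lower, and 3 of the 7 were without overlap, beside 6.42% of the list, including chr4:146478901-146479300 with 134, 136, 133 and 178 with vehicle and 98, 62, 98 and 66 with TAK-418.

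**Figure D5:**
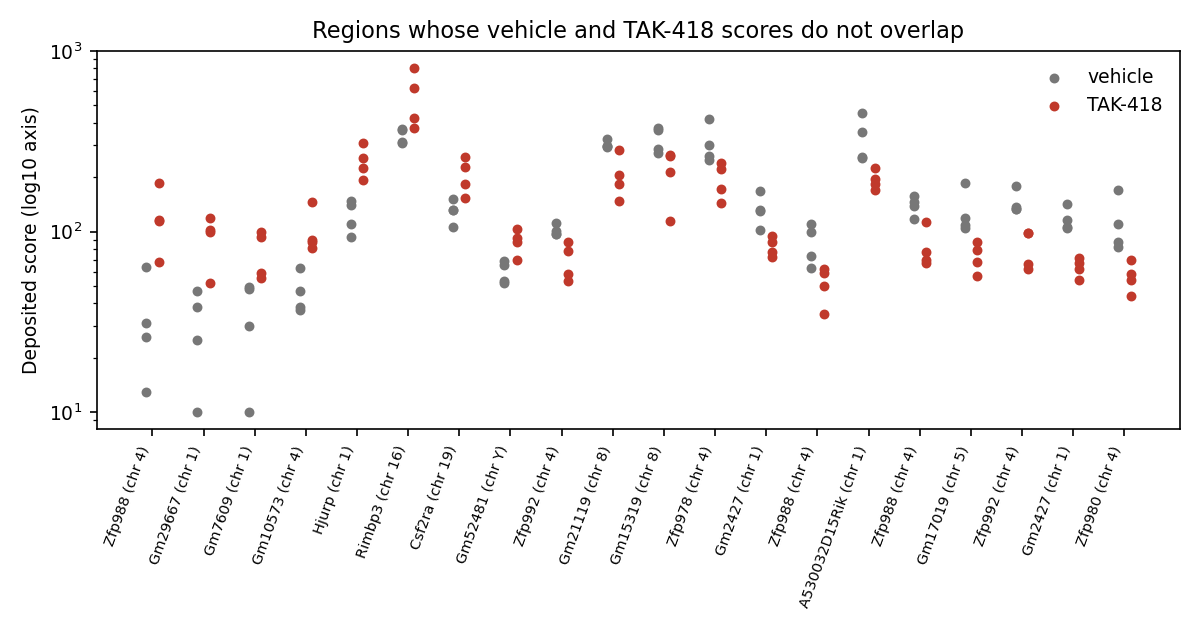
Deposited scores (log10 axis) of the 20 regions with the largest ratios among the 35 whose group ranges do not overlap, 4 points per group, ordered by the ratio of means from 3.60 at Zfp988 on the left to 0.503 at Zfp980 on the right. Names give the nearest protein-coding gene, and Gm10573 lies over 100 kb from its region.

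The smaller autosomal loci went both ways. On chromosome 6, among predicted genes (chr6:47653001-47759400), 12 of 16 regions were lower with TAK-418, and on chromosome 8 (chr8:19707351-20812850) 9 of 14 were lower. At that chromosome 8 locus summed scores overlapped, at 2030, 1928, 1944 and 1862 with vehicle and 1647, 1427, 2102 and 1504 with TAK-418. Summed scores on chromosome 6 were 2654, 3472, 4761 and 1871 with vehicle and 2281, 2723, 2908 and 2762 with TAK-418, so the vehicle libraries spanned the TAK-418 range. Peaks there covered 10.3, 48.5, 54.9 and 3.6 kb in mice 842, 844, 845 and 848, and 11.6, 26.8, 31.1 and 26.2 kb in mice 801, 811, 814 and 815. Near 9230019H11Rik on chromosome 10, 5 of 5 regions were lower, and near Olfr161 on chromosome 16, 5 of 7. Near Gm51591 on chromosome 8, 5 of 7 were higher. On chromosome 9 (chr9:2999901-3038500) 7 of 7 were higher, but 4 of 7 with columns scaled, 1 of 7 without vehicle value 4 and 1 of 7 without TAK-418 value 2. Tmem267 on chromosome 13 had 4 of 5 regions higher. Of the 5, 1 was without overlap, beside 6.42% of the whole list (chr13:119600601-119602150, with 1175, 1140, 1174 and 986 with vehicle and 1356, 1626, 1640 and 1276 with TAK-418).

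The distal ends of the sex chromosomes held higher regions only. These ends hold the pseudoautosomal part, in which X and Y carry the same sequence and pair in male meiosis. Whether every region of the loci below lies in that part was not checked. On the Y chromosome (chrY:90738651-90808300) 10 of 10 regions were higher with TAK-418, with summed scores of 1384, 1767, 1969 and 1282 with vehicle and 2268, 2306, 3067 and 1711 with TAK-418. On the X chromosome, between Mid1 and Erdr1 (chrX:169991251-170019900), 7 of 7 were higher, with sums of 1085, 1413, 1599 and 981 with vehicle and 1877, 2465, 2284 and 1020 with TAK-418. The fourth TAK-418 value lay within the vehicle range at both ends, and the other 3 lay above it. Signal from the rest of the Y chromosome also differed: over 6 listed Y regions outside that end, scores summed to 151, 5197, 38 and 2479 with vehicle and 3864, 3707, 2186 and 114 with TAK-418, so 2 of 4 vehicle values and 3 of 4 TAK-418 values were high. Peak lists gave the same numbers of mice, with Y peaks outside the distal end in mice 844 and 848 and in mice 801, 811 and 814. The part of Y signal in the result at the distal ends was not tested.

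The wild type list, from other mice, gave a separate reading of TAK-418. It held 538 regions, 287 higher and 251 lower with TAK-418, and 255 of the 545 heterozygote regions (46.8%) overlapped 250 of them (46.5%) by at least 1 base. Of the 255, 114 had the same direction. Among the 158 with a peak 107 did (76 higher in both, 31 lower in both), 43 were lower in heterozygotes and higher in wild types, and 8 the reverse. Among the 97 without a peak 7 did and 89 were higher in heterozygotes and lower in wild types. The wild type medians over those 97 were 657, 454, 460 and 277 with vehicle and 286, 455 and 301 with TAK-418. They are not set against the heterozygote medians, since scores were compared only within a list.

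Counts by direction at single loci were as follows. In the Sp110 cluster 68 of 90 wild type regions were higher with TAK-418, against 27 of 95 in heterozygotes, and at Sfi1 41 of 42 were higher, against 16 of 47. These counts run over the regions of each list, not all of which are shared. Of 48 shared regions in the Sp110 cluster, 14 were higher in both genotypes and 17 lower in both. A further 17 were lower in heterozygotes and higher in wild types. At Sfi1, of 17 shared regions 9 were higher in both, and 8 were lower in heterozygotes and higher in wild types. Whether the shares differ between genotypes was not tested. Inside C130026I21Rik a wild type region that overlaps chr1:85273901-85275400 had 183, 139, 149 and 43 with vehicle and 150, 275 and 152 with TAK-418, while the heterozygote region had 756, 823, 724 and 743 with vehicle and 696, 648, 476 and 532 with TAK-418. The wild type groups overlapped there and the heterozygote groups did not. The listed regions differ in width, so their scores are not comparable between the lists. At the distal Y end all 6 shared regions, and between Mid1 and Erdr1 all 3, were higher with TAK-418 in both genotypes. In wild types, too, Y peaks outside the distal end were found in a larger share of TAK-418 mice (805 and 813, of 3) than of vehicle mice (843, of 4), and their part in this result was not tested.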

How the data were processed

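H3K4me1 ChIP-seq of mouse hippocampus was analysed from the authors' files. The submitters' processing notes name mm10 as the assembly, and bedtools, MACS and MACS2 without versions. How reads were aligned, which control was used, which thresholds applied and whether duplicates were dropped is not given in the sources used here. Deposited peaks carry the authors' fold enrichment, a ratio, and −log10 p and q values. Each region in the deposited lists carries the authors' −log10 p and 1 whole-number score per library, of unstated normalization, compared here only within a list. The mark of this list was inferred, since its name gives none, from a companion list with 3 values for wild type TAK-418. Columns of scores hold unnamed libraries of a group, and the order within a group was used only to compare rows.

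Direction is the sign of the difference of mean scores. Peak measures were compared as log10 values with exact permutation tests, two-sided, list regions by limma 3.58.1 in R 4.3.3 on log2(score + 1) with a trend and Benjamini-Hochberg adjustment over all 545 regions, and merged peaks by Fisher's exact test. The limma and Fisher steps were tested on simulated data. Other work used Python 3.11.15, numpy 2.4.6, pandas 2.3.3, scipy 1.17.1, biopython 1.88 and matplotlib 3.10.9. Genes and upstream sequences came from RefSeq (GRCm38.p6). A gene end means either end, since strand is not in the gene table. p-values cover the spread between these mice. Named regions were taken from sets made by rule, and not every region of these sets is described. The sets were the 10 higher and 10 lower with the strongest authors' p outside recurrent bases, and 5 inside them. Further sets were up to 20 without overlap, the 5 smallest limma p per direction and those of listed genes. The last were peaks in all of one group and at most 1 of the other, and the 5 highest and 5 widest. Others were named to describe a locus or an upstream sequence after their values were seen. Members, gene lists and alternatives were chosen with earlier results of these data known.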

Additional observations from a re-analysis of the deposited data

Results flagged for a closer look

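Among 56 groups of 4 values checked (3 peak measures and the scores of the regions strongest by the authors' p), 5 held 1 value far from the other 3. Chance marks about 1 group in 20 by this rule. The length covered by peaks in mouse 815, 445.5 kb, stood far below the other TAK-418 libraries (554.5 to 561.0 kb). Inside 2210408I21Rik (chr13:77438801-77439250) 1 vehicle score of 4979 stood above the others (2534 to 2762). Near Dpy19l2 (chr9:24541901-24542400) 1 TAK-418 score of 3239 stood below the others (6035 to 6315). Near Frmd4a (chr2:3964401-3964800) 1 TAK-418 score of 309 stood above the others (145 to 156). Near Zfp992 (chr4:146478901-146479300) 1 vehicle score of 178 stood above the others (133 to 136), and there the groups still did not overlap.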

How the results depend on the processing

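No paired analysis was possible because the groups compared hold different mice and share no replicate number. With limma no region passed an adjusted p of 0.05 under any of the 15 alternatives. The difference in log10 number of peaks (0.034) became −0.0053 with peaks of a −log10 q of at least 5, and that in genes with a peak at an end (0.053) became −0.079. The difference in log10 covered length (−0.029) became 0.010 without recurrent bases. Without 1 mouse at a time these 3 differences ranged from −0.012 to 0.086, from 0.011 to 0.092 and from −0.092 to 0.020, and none of these passed its test. The 35 regions without overlap became 19 without recurrent bases, 134 without vehicle values 2 and 3, and 45 to 86 without 1 value at a time. The 333 higher regions became 174 over regions with a peak and 291 to 338 without 1 value at a time. The 255 regions shared with the wild type list became 168 with an overlap of at least 50% of both, 142 without recurrent bases and 158 over regions with a peak. Of the 25 regions strongest by the authors' p, 2 changed direction, both without the second vehicle value (log2 ratio −0.094 near Tacr3 and −0.055 near Gprin3, with highest values of 0.94 and 1.00 without another value). The second and the third vehicle value were not left out together for these 25. At chr2:74184301-74184650, 1 of the 25, the vehicle values then left, 19274 and 14600, both stand above the TAK-418 mean of 14082. The same holds at Trim30a (609459 and 465875 against 441717) and at chr10:72297051-72297800 (4245109 and 3293564 against 3114540), so there the direction would reverse. Fewer values leave fewer ways to overlap, which raises a count without overlap by construction, and for the other changes the cause was not tested. Depth was unknown, so the lists cannot show whether a region without a peak lacked signal.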
